A study of Equus caballus with 6 samples.

Results

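A family of small RNAs that begin like the 5′ end of tRNA-Gly-GCC, the glycine tRNA with the anticodon GCC, was followed in mature and immature testes of the Mongolian horse. The family was defined by sequence. Its members are all rows of the deposited table of called piRNAs that hold, at any offset, the 20 nt from base 2 to base 21 of the most abundant row, uniq_2076883, with at most 1 mismatch. This gave 478 of 4936717 distinct sequences, carrying 704159 of 17914237 reads. The row at the centre of the family was picked because it was the most abundant one and because it was higher in immature testis. The levels of the family in the 2 groups are therefore a description and carry no test. Tests were kept for length, 5′ end and base changes inside the family, which were not used to pick the central row. The rule still limits the 5′ ends a member can have, and allows at most 1 change in the 20 nt.

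Small RNA was sequenced from 3 libraries of mature testis and 3 libraries of immature testis, all of the Mongolian horse. The labels name no treatment, genotype, age or stage of spermatogenesis, and do not say whether each library came from a separate animal, so p-values measure only the spread between these libraries. The table held 4032042 to 4550970 reads per mature library and 1382083 to 2347351 per immature library, in sequences of 25 to 32 nt. These are reads of called piRNAs and not the sequencing depth. The name of the table marks them as newly found piRNAs, and whether known piRNAs were left out is not stated. Totals, CPM and ranks hold within this table only. Levels are given as CPM, a row's reads scaled to the same table total in each library. A count of 0 allows up to 3 reads, or 0.659 to 0.744 CPM in the mature and 1.28 to 2.17 CPM in the immature libraries. The table gives no genome coordinates, so no locus is given for these sequences. A tissue library does not tell fewer cells of a type from less RNA per cell. Defining marker genes of testis could not be checked, because the table holds small RNA sequences and no genes.

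Transfer RNAs carry amino acids to the ribosome. Cleavage in or near the anticodon loop leaves 5′ fragments, a class of tRNA-derived small RNAs, and 5′ fragments of glycine tRNAs are among the most frequent ones known from mammalian male reproductive tissues and sperm. piRNAs are bound by PIWI proteins in germ cells, guide the silencing of transposons, and most often begin with uridine, whereas tRNA-Gly-GCC begins with guanosine. A tRNA fragment in a list of called piRNAs need not be bound by a PIWI protein, and binding was not measured here.

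The sequences that carry the results are shown 5′ to 3′ as the table gives them, with T for uridine. In the leading row the capitals mark the 20 nt of the rule. In the other rows they mark each base that differs from the leading row, and a row without capitals is a shorter copy of it. Base positions are counted from 1 at the 5′ end of the leading row, and a change is written with the base of the leading row, the position and the base found.
uniq_2076883, leading row: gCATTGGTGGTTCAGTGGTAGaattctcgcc
uniq_2080573, 30 nt: gcattggtggttcagtggtagaattctcgc
uniq_2069824, 29 nt: gcattggtggttcagtggtagaattctcg
uniq_2092732, 28 nt: gcattggtggttcagtggtagaattctc
uniq_2067656, 27 nt: gcattggtggttcagtggtagaattct
uniq_3790290, C31T: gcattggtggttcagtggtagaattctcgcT
uniq_3790284, C31A: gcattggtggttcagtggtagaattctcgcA
uniq_3790294, C31G: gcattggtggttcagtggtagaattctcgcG
uniq_4072286, G1T at 32 nt: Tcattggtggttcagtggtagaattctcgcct
uniq_3181825, G1T at 31 nt: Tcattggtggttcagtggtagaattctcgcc
uniq_4539102, G1A: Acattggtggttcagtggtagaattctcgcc
uniq_4522743, G1C: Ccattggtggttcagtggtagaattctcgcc
uniq_2789082, G6T: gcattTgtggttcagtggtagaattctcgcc
uniq_3045444, T5G: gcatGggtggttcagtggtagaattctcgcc
uniq_4154646, T4G: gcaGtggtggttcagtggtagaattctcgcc
Base 32 was taken as T, the most frequent base after the end of the leading row among family reads of 32 nt. Rows identical to the leading row up to their end were analysed at 26 to 31 nt. At 25 nt the most abundant row was uniq_5095426, with T25C and 165 reads in all. The rows analysed held no unchanged row of 25 nt or of 32 nt, which bears on each length share below.

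A pair of libraries stood apart. Mature replicate 1 held far more of the family than the other mature libraries. Immature replicate 1 held more reads beginning with T, more reads of 30 nt and most reads with the change T4G. Means that 1 library moved by over 1.5 times are given with and without it, or by library.

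The family made up a smaller part of the table in mature testis. It held 2.39%, 0.435% and 0.672% of table reads in mature replicates 1, 2 and 3, against 9.07%, 13.4% and 8.03% in immature replicates 1, 2 and 3. The groups did not overlap, with means of 1.16% ± 1.06 in the mature libraries and 10.2% ± 2.84 in the immature libraries (SD, n = 3). Without mature replicate 1 the mature mean was 0.553%. Among reads of 31 nt, whatever their origin, the family took 8.27%, 1.00% and 1.86% in the mature libraries, against 47.4%, 63.8% and 54.8% in the immature ones. Among all reads of the table that begin with G it took 42.0%, 11.1% and 16.3% in the mature libraries, against 68.8%, 82.7% and 72.6% in the immature ones. In immature testis this family was therefore the larger part of the reads that begin with G in each library.

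The leading row stood at 7588, 986 and 1690 CPM in mature replicates 1, 2 and 3, against 32475, 60530 and 35575 CPM in immature replicates 1, 2 and 3. It was the most abundant sequence of each immature library, and ranked at position 2, 17 and 7 in the mature libraries. Within the family it took 31.8%, 22.7% and 25.1% of reads in mature testis, against 35.8%, 45.2% and 44.3% in immature testis. Its share of family reads was thus lower in each mature library than in each immature one. This share is also lowered by the reads beginning with T, described below. They made up 33.8% of family reads in the mature and 1.38% in the immature libraries. The share of the leading row among reads beginning with G was not computed.

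The shorter copies of the leading row end at successive bases before its 3′ end. uniq_2080573, which lacks the last base, stood at 1010, 468 and 751 CPM in the mature libraries, against 26761, 13905 and 6447 CPM in the immature ones. Its level varied most within immature testis, where replicate 1 stood above replicate 3, and the groups did not overlap. uniq_2069824, of 29 nt, averaged 230 ± 147 CPM in the mature libraries and 2193 ± 790 CPM in the immature libraries (SD, n = 3), and the mature mean was 145 CPM without mature replicate 1. uniq_2092732, of 28 nt, averaged 161 ± 80.0 CPM in the mature libraries and 1685 ± 222 CPM in the immature libraries. The copies of 27 nt and 26 nt, uniq_2067656 and uniq_2080704, averaged 69.3 ± 15.8 and 18.6 ± 2.50 CPM in mature testis, against 1144 ± 343 and 256 ± 61.7 CPM in immature testis. The groups did not overlap for any of these shorter copies. In the levels of these shorter copies, as in that of the leading row, mature replicate 1 was the highest mature library.

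Of the 478 rows, 157 had enough reads for edgeR's quasi-likelihood test under its default filter. With TMM factors, which rescale the library totals as if most sequences kept their level, 155 of them were called lower in mature testis and 0 higher at a Benjamini-Hochberg adjusted p under 0.05. Over all 31788 tested sequences 21.9% were called lower and 8.41% higher. When the library totals were used unscaled, 146 were called lower and 1 higher, where 20.3% of all tested sequences were lower and 77.7% higher. The median log2 fold change of the 157 rows, mature over immature testis, was -6.21 with TMM factors and -3.67 with library totals, and that of all tested sequences was 0.62 and 3.15. Because the central row was chosen on this contrast and the other rows were taken for their likeness to it, nothing is read from these counts. The scales differ by 2.52 in the median log2 fold change of all tested sequences, so a direction between the groups is stated below only with the scale. Shares inside the family do not depend on the scale.

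Within the reach of the rule, nearly all reads shared a single 5′ end. Reads starting at base 1, whatever base stood there, made up 99.98% ± 0.0189 of family reads in the mature libraries and 99.99% ± 0.00456 in the immature libraries (SD, n = 3, exact permutation p = 0.7, adjusted p = 0.7 over the 3 tests between groups). They came from 444 rows with 704100 reads. The other 34 rows held 59 reads in all. Of these, 27 rows with 52 reads began 1 base before base 1, 6 rows began further upstream and 1 row began at base 2. Since the rule requires bases 2 to 21, a fragment that started after base 2 could not be a member, and these shares say nothing of such fragments.

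At the first base, T was more frequent in mature testis. Rows beginning with T took 33.5%, 32.7% and 35.2% of family reads in mature replicates 1, 2 and 3, against 3.03%, 0.365% and 0.728% in immature replicates 1, 2 and 3. The groups did not overlap, and the mature libraries lay close together although their family shares of the table did not. The means were 33.8% ± 1.25 in the mature libraries and 1.38% ± 1.45 in the immature libraries (SD, n = 3), and without immature replicate 1 the immature mean was 0.547%. Most mature reads beginning with T were of 32 nt, a length at which no unchanged row with G was analysed. Without rows of 32 nt the groups differed by 10.5 percentage points, against 32.4 with them. Rows beginning with A took 0.922% ± 0.137 and rows beginning with C 0.637% ± 0.0295 of family reads in mature testis, against 0.255% ± 0.0581 and 0.0428% ± 0.0416 in immature testis. Without immature replicate 1 the immature mean for C was 0.0188%. Rows beginning with G, the base of the tRNA, took 64.7% ± 1.29 in the mature libraries and 98.3% ± 1.55 in the immature libraries. That a variant with another first base was high in mature testis was known from earlier results of these data, so the first base is described and carries no test.

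From 26 to 31 nt, the lengths with an unchanged row, the first-base change was set against the row of the same length that keeps G. At 31 nt the G1T row uniq_3181825 had 20.6%, 19.9% and 20.1% as many reads as the leading row in mature replicates 1, 2 and 3, against 2.80%, 0.264% and 0.275% in immature replicates 1, 2 and 3. At 30 nt the G1T row uniq_2976976 had 20.2% ± 0.865 as many reads as uniq_2080573 in the mature libraries and 1.05% ± 1.35 in the immature libraries (SD, n = 3), or 0.278% in the immature ones without replicate 1. The pair at 29 nt averaged 19.7% ± 1.45 in the mature libraries and 1.06% ± 1.33 in the immature libraries (SD, n = 3), or 0.291% in the immature ones without replicate 1. The pair at 27 nt averaged 20.4% ± 1.33 in the mature libraries and 0.907% ± 1.22 in the immature libraries, or 0.206% without immature replicate 1. At 28 nt the ratio was 21.8%, 19.4% and 18.8% in the mature libraries, against 1.89%, 0.291% and 0.285% in the immature ones. At 26 nt, where the row with G had only 68 to 89 reads in the mature libraries, the ratio was 23.6% ± 5.33 in the mature libraries and 0.729% ± 0.308 in the immature libraries. At each of these lengths every mature library lay above every immature one. Immature replicate 1 was the highest immature library at each length. These ratios were looked at after their values were known and carry no test, and the same holds for the ratios of the other base changes below.

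The changes G1A and G1C showed the same order of groups at lower ratios. At 31 nt the G1A row uniq_4539102 had 2.38% ± 0.373 as many reads as the leading row in the mature libraries and 0.382% ± 0.0440 in the immature libraries (SD, n = 3). The G1C row uniq_4522743 had 1.62% ± 0.113 in the mature libraries and 0.0679% ± 0.0686 in the immature libraries, or 0.0283% without immature replicate 1. Neither ratio overlapped between the groups, so all 3 bases other than G were more frequent at base 1 in mature testis relative to the leading row. The leading row was itself picked for its higher level in immature testis, which bears on ratios to it. In levels, uniq_4539102 stood at 150, 24.1 and 45.9 CPM in the mature libraries, against 140, 219 and 125 CPM in the immature ones, and the groups overlapped. Its log2 ratio was -1.14 by library totals and -3.71 with TMM scaling, and its ratio moved from 0.455 to 0.217 without mature replicate 1. uniq_4522743 stood at 115, 17.1 and 27.5 CPM in the mature libraries, against 47.8, 19.2 and 8.89 CPM in the immature ones, and these groups overlapped too. Its log2 ratio was 1.07 by library totals, and the order turned with TMM scaling (log2 ratio -1.59) and without mature replicate 1 (log2 ratio -0.18).

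The most abundant row with another first base was uniq_4072286, which begins with T and ends at base 32. It stood at 6026, 1053 and 1800 CPM in mature replicates 1, 2 and 3, against 1019, 269 and 449 CPM in immature replicates 1, 2 and 3. Every mature value lay above every immature value, with mature replicate 2 only just above immature replicate 1. It ranked at position 3, 12 and 6 in the mature libraries, against 16, 63 and 31 in the immature ones, and in mature replicates 2 and 3 it had more reads than the leading row. By library totals its mean was 5.11 times higher in mature testis, 2.46 times without mature replicate 1 and 8.24 times without immature replicate 1, but with TMM scaling its log2 ratio was -0.31. On unscaled totals it was the 1 family row called higher in the mature group (edgeR log2 fold change 2.35 ± 0.76 SE, adjusted p = 0.00204), and was not called with TMM factors (adjusted p = 0.73). These p-values belong to a row that was listed for its level and are given as a description. The row uniq_3181825, shorter by 1 base, stood at 1566, 197 and 340 CPM in the mature libraries, against 908, 160 and 97.8 CPM in the immature ones, and its groups overlapped. Its log2 ratio was 0.85 by library totals, -1.85 with TMM scaling and -0.53 without mature replicate 1.

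Rows beginning with T were mostly of 32 nt in mature testis. Among reads that begin with T at base 1, 75.5%, 74.1% and 76.2% were of 32 nt in mature replicates 1, 2 and 3, against 37.1%, 55.4% and 77.3% in immature replicates 1, 2 and 3. The groups overlapped. Among reads that begin with G the share of 32 nt was 0.674% ± 0.0536 in the mature libraries and 0.768% ± 0.465 in the immature libraries (SD, n = 3). These shares are not comparable between the first bases, because the rows analysed held none of 32 nt with G at base 1 and no other change. The share of 31 nt among reads that begin with G was 72.7% ± 10.9 in the mature libraries and 73.8% ± 13.7 in the immature libraries, a difference within the spread.

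Over the whole family, reads of 32 nt made up 25.7%, 24.6% and 27.2% in mature replicates 1, 2 and 3, against 2.27%, 0.464% and 1.41% in immature replicates 1, 2 and 3. Reads of 31 nt made up 63.2%, 47.8% and 49.6% in the mature libraries, against 57.2%, 82.1% and 80.4% in the immature ones. At 30 nt the shares were 5.54%, 14.5% and 14.3% in the mature libraries, against 32.6%, 11.2% and 8.65% in the immature ones, and immature replicate 1 stood above the others, with an immature mean of 17.5% and of 9.95% without it. The lengths from 25 to 29 nt together with 30 nt and 31 nt overlapped between the groups, and 32 nt did not. The mean length of family reads was 30.9 nt ± 0.166 in the mature libraries and 30.6 nt ± 0.131 in the immature libraries (SD, n = 3), a difference of 0.276 nt that did not pass the test (exact permutation p = 0.2, adjusted p = 0.3 over the 3 tests). The difference was 0.516 nt without the leading row, 0.326 nt with each distinct row counted once and 0.299 nt with no mismatch allowed. Each of these had an exact permutation p of 0.1, the smallest that 3 against 3 libraries allow. The order of the groups turned without the rows of 32 nt, with a difference of -0.0927 nt, and without the rows beginning with T, with -0.0771 nt (exact permutation p = 0.7 and 0.8).

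The last base of the fragments was often another base than that of the leading row at the same position. Among reads of 31 nt that match the leading row up to base 30, the last base was changed in 35.1%, 40.5% and 35.1% in mature replicates 1, 2 and 3, against 27.2%, 39.9% and 39.2% in immature replicates 1, 2 and 3. The groups overlapped, and immature replicate 1 was the lowest library. T was the most frequent changed base there, in 22.2% ± 2.04 of these reads in the mature libraries and 22.6% ± 3.87 in the immature libraries (SD, n = 3). A followed, in 12.4%, 13.2% and 12.2% in the mature libraries, against 8.21%, 12.9% and 12.0% in the immature ones. G was found in 2.12% ± 0.527 in the mature libraries and 1.75% ± 0.794 in the immature libraries. The C31T row uniq_3790290 was the second most abundant row of the family, at 2449, 407 and 550 CPM in the mature libraries, against 8110, 24851 and 14655 CPM in the immature ones. The C31A row uniq_3790284 stood at 1453, 219 and 317 CPM in the mature libraries, against 3663, 12960 and 7037 CPM in the immature ones. Both rows were lower in each mature library than in each immature one by library totals and with TMM scaling. A base added to the copy that ends at base 30 and a change of base 31 cannot be told apart in these sequences.

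At 30 nt a changed last base was found in 3.28% ± 1.24 of reads in the mature libraries and 2.18% ± 1.17 in the immature libraries (SD, n = 3). All of these reads ended in G. The rows analysed held none with C30A or C30T, so this share is not comparable with those at the other lengths. At 29 nt a changed last base was found in 21.2% ± 1.65 in the mature libraries and 19.5% ± 3.98 in the immature libraries, nearly all of it A in place of G, with 19.6% ± 1.83 and 17.6% ± 3.30. At 28 nt the shares were 12.6% ± 1.71 in the mature libraries and 11.1% ± 1.53 in the immature libraries, and at 26 nt 8.99% ± 2.57 and 6.20% ± 1.98. At 27 nt they were 22.4% ± 2.18 in the mature libraries and 17.5% ± 3.30 in the immature libraries, and here the groups did not overlap. C was the most frequent changed base at 27 nt, in 11.9% ± 2.02 of reads in the mature libraries and 8.71% ± 1.27 in the immature libraries. At the other lengths from 26 to 31 nt the groups overlapped.

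No row with T at base 1 had a changed base 31. Such rows numbered 17 when read from base 1, and 9 of them had a further difference, with 113 reads in all. Reads with 2 or more differences from the leading row were rare throughout: 376 rows with 298966 reads had 1 difference, 52 rows with 653 reads had 2, 9 rows had 3 and 1 row had 4. Rows with 1 difference made up 59.2% ± 1.27 of reads that start at base 1 in the mature libraries and 36.8% ± 6.72 in the immature libraries (SD, n = 3). Most reads beginning with T are counted here, as their first base is a difference. Such reads made up 33.8% of family reads in the mature and 1.38% in the immature libraries. Reads of the lengths without an unchanged row are counted as changed too. The higher share in the mature libraries therefore does not by itself show more changes at other bases there. The filters a sequence passed to enter the table are not stated, and their part in these counts and shares was not tested.

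At 31 nt most single changes inside the fragment were at a low level. Of the 87 possible changes at bases 2 to 30 of the leading row, 71 were among the rows of 31 nt. In 68 of these the reads stayed at or below 0.598% of those of the leading row in each library. The median over the 71 changes was 0.0503% to 0.0615% across the 6 libraries. Changes within the purines or within the pyrimidines, 23 rows, had a median of 0.259% over their library means, and the other 48 rows had 0.0366%. At this length the 3 changes that passed 1% in at least 1 library were T4G, T5G and G6T, which stand next to each other near the 5′ end. Other changes passed 1% at shorter lengths, such as G15A in uniq_2078670 at 27 nt, with 184 reads in all. This row had 0.829%, 1.68% and 1.43% as many reads as uniq_2067656 in the mature libraries. In the immature libraries it had 2.53%, 3.98% and 2.36%. Whether any change is encoded by another tRNA gene was not tested, as no locus is given for these sequences.

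G6T made up a smaller share of family reads in mature testis, with 1.84%, 1.43% and 1.60% in mature replicates 1, 2 and 3, against 2.11%, 2.40% and 3.07% in immature replicates 1, 2 and 3. These groups did not overlap. The family total includes the reads beginning with T, 33.8% in the mature and 1.38% in the immature libraries. Such reads rarely had a further difference, so the smaller share does not by itself show a lower frequency of G6T. Among the rows analysed, none of 30 nt had G6T or T5G as its only change, which bears on the family-wide shares of both changes. At 31 nt the groups were not separate. Here the row uniq_2789082 had 5.22%, 4.68% and 5.05% as many reads as the leading row in mature replicates 1, 2 and 3, against 4.63%, 4.47% and 5.71% in immature replicates 1, 2 and 3. The groups overlapped. In shorter fragments G6T was more frequent in immature testis: at 28 nt it had 5.50% ± 0.718 as many reads as the row without the change in the mature libraries and 8.87% ± 0.541 in the immature libraries (SD, n = 3), and at 27 nt 6.99% ± 1.37 and 12.6% ± 4.03. At 26 nt the ratio was 3.14% ± 2.73 in the mature libraries and 18.9% ± 4.02 in the immature libraries, and no library of one group reached the other at 26, 27 or 28 nt. Mature replicate 1 had no read of the G6T row at 26 nt, and without it the mature mean was 4.71%. At 29 nt the groups overlapped again, with 5.60% ± 1.39 in the mature libraries and 5.49% ± 0.741 in the immature libraries. Another base at the same position, G6A, was found at 0.530% ± 0.0902 in the mature libraries and 0.568% ± 0.0384 in the immature libraries at 31 nt.

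T5G was more frequent in mature testis at 31 nt. The row uniq_3045444 had 7.82%, 6.54% and 6.15% as many reads as the leading row in the mature libraries, against 4.48%, 3.08% and 2.99% in the immature ones. Each mature library lay above each immature one. At 26 nt the groups did not overlap either, with 7.50% ± 1.47 in the mature libraries and 4.03% ± 2.22 in the immature libraries (SD, n = 3). At 27, 28 and 29 nt they overlapped, with 10.5% ± 2.31 in the mature libraries and 6.87% ± 2.16 in the immature libraries at 29 nt. In levels this row was lower in each mature library, at 593, 64.5 and 104 CPM, against 1456, 1867 and 1065 CPM in the immature libraries, by library totals and with TMM scaling.

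T4G was found mostly in immature replicate 1. Reads with this change made up 2.77% of family reads there, against 0.0344% and 0.0766% in immature replicates 2 and 3, and 0.0425%, 0.0457% and 0.0523% in mature replicates 1, 2 and 3. At 31 nt the row uniq_4154646 had 1068 of its 1133 reads in immature replicate 1. The remaining reads were 12, 0 and 1 in the mature libraries and 37 and 15 in the other immature libraries. At 30 nt the T4G row uniq_4331531 had 957 of 973 reads in immature replicate 1, and at 32 nt uniq_3336576 had 1271 of 1447. Relative to the row without the change T4G had 2.38% as many reads at 31 nt, 2.59% at 30 nt, 2.25% at 29 nt, 2.61% at 28 nt, 2.53% at 27 nt and 4.14% at 26 nt in that library. This change thus rested on 1 library. The means were 0.0468% of family reads in mature testis and 0.961% in immature testis, or 0.0555% in immature testis without replicate 1.

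Rows with 1 mismatch in the 20 nt of the rule, which include T4G, T5G and G6T, made up 6.49%, 5.40% and 5.46% of family reads in mature replicates 1, 2 and 3, against 9.47%, 6.15% and 7.62% in immature replicates 1, 2 and 3. The groups overlapped, with means of 5.79% ± 0.615 in the mature libraries and 7.75% ± 1.66 in the immature libraries (SD, n = 3, exact permutation p = 0.2, adjusted p = 0.3 over the 3 tests). Without rows of 30 nt, where no analysed row had G6T or T5G as its only change, the difference was -2.59 percentage points (exact permutation p = 0.2). Leaving out the rows with T4G brought the difference from -1.96 to -1.11 percentage points. Without the leading row it was -5.28, and with each distinct row counted once -3.79 percentage points. Both had an exact permutation p of 0.1, the smallest that 3 against 3 libraries allow. Reads beginning with T, 33.8% of family reads in the mature and 1.38% in the immature libraries, rarely had a further difference. They lower the share with 1 mismatch more in the mature libraries. The difference therefore does not by itself show fewer changes inside the fragment there. At the threshold of the rule, 306 rows with 1 mismatch held 49199 reads, up to 13606 in a row and 7 in the median row. Another 53 rows just outside it, with 2 mismatches, held 142 reads, up to 32 in a row and 1 in the median row.

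A family of 5′ fragments of a glutamate tRNA, found with the same rule around uniq_4708970, was used for comparison. It had 281 rows and took 0.579% ± 0.0882 of table reads in the mature libraries and 0.670% ± 0.117 in the immature libraries (SD, n = 3). Within libraries the glycine family was longer by 0.0956 nt ± 0.175 (SD, n = 6 libraries), a difference that did not pass the test (exact sign-flip p = 0.219, adjusted p = 0.328 over 3 such tests, longer in 5 of 6 libraries). Without mature replicate 1 it was 0.0355 nt. Its share of reads with 1 mismatch differed from that of the glutamate family by -9.63, -9.57 and -8.73 percentage points in mature replicates 1, 2 and 3, against 2.62, -3.50 and 0.141 percentage points in immature replicates 1, 2 and 3. Over all 6 libraries this did not pass the test (mean difference -4.78 ± 5.34, exact sign-flip p = 0.125, adjusted p = 0.328). The glutamate change with the most reads was C6T, counted from base 1 of uniq_4708970, with 13.5% ± 0.907 of that family's reads in the mature libraries and 4.37% ± 2.31 in the immature libraries. All glutamate rows with 1 mismatch made up 15.1% ± 0.976 in the mature libraries and 7.99% ± 1.47 in the immature libraries. C6T lies inside the 20 nt and so made up most of this share in the mature libraries. The difference between the families thus depends on C6T, and was not computed without it. Reads starting at base 1 did not differ beyond their spread between the families (mean difference -0.00234 ± 0.0181 percentage points, exact sign-flip p = 0.781, adjusted p = 0.781). The 281 glutamate rows all began with T, so their first base gives no comparison with G1T.

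Rarely read rows held few of the reads. Of the 478 rows, 155 were read in all 6 libraries and held 99.3% of family reads, and 85 rows, or 17.8%, had 1 read in all. The mature libraries held 275, 227 and 247 of the rows, and the immature ones 344, 357 and 351. The 8 rows first listed for the family held 86.5% of its reads. The strand opposite to the tRNA was almost unseen: 1 row with 1 read held the reverse complement of the 20 nt with at most 1 mismatch. Sequences whose first 10 bases are the reverse complement of the first 10 bases of the leading row, as a partner in the ping-pong cycle of piRNA production would have, numbered 0 among the 4936717 rows, and for the rows beginning with T the number was also 0.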

How the data were processed

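The deposited table holds raw read counts per distinct sequence, with 1 column per library, per the file headers and the values. Per the labels' protocols, libraries were made from 3 µg of total RNA by ligation of adapters, followed by gel recovery of fragments between 140 and 160 bp. Per the submitters' processing notes Bowtie was used; how it was run, the genome build and the way piRNAs were called are not given in these sources. Columns were matched to libraries by the labels. The members, lists and comparisons were chosen with earlier results of these data known.

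Family rows were found by ungapped comparison in Python 3.11.15, and the offset of the best match gave the 5′ end. CPM values and shares were computed from the counts. The search and the tests were tested on simulated data. The full table was fitted with edgeR 4.0.16 in R 4.3.3 (quasi-likelihood test, TMM factors over table totals, filterByExpr, Benjamini-Hochberg over 31788 sequences), and DESeq2 1.42.0 was an alternative. Shares were compared by exact two-sided permutation tests, which cannot go below 0.1 with 3 against 3 libraries, and families by exact two-sided sign-flip tests over 6 libraries. The 95% Wilson intervals of shares of family and table reads had a half-width of at most 0.739 percentage points, and those of the changed last base at most 6.41. No molecular identifiers are mentioned, so reads are not independent molecules, and counting error is all that these intervals and the floors include. Within a group each pair of libraries differed beyond sampling noise, with a chi-square per sequence between 1.70 and 2.71.

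Named rows were the 8 listed ones, the highest row at each length and at each well-read 5′ end, the 6 highest with 1 mismatch and the 3 highest with each other first base. uniq_3790294 was added after its values were seen.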

Additional observations from a re-analysis of the deposited data

How the results depend on the processing

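The shares beginning with T differed between mature and immature testis by 32.4 percentage points, by 34.2 with no mismatch allowed, by 43.9 without the leading row, by 10.5 without rows of 32 nt (an alternative chosen after seeing the data) and by 2.72 with each distinct row counted once. The family share of the table differed by -9.00 percentage points, by -5.06 without the leading row and by -0.0133 with each row counted once. Against the glutamate family the length difference was 0.0355 nt to 0.141 nt with 1 library left out. The mean length turned from 0.276 nt to -0.0927 nt without rows of 32 nt and to -0.0771 nt without rows beginning with T, both chosen likewise. The share starting at base 1 differed by -0.00907 percentage points, by 1.29 with each row counted once, and by -0.0149 to 0.00180 with 1 library left out. Against the glutamate family, counting each row once gave -0.906 nt, -18.8 percentage points with 1 mismatch and -1.65 percentage points starting at base 1 (each at the smallest exact sign-flip p that 6 libraries allow), and the last of these was 0.00201 without rows of 1 read, 0.00816 within immature testis and -0.00591 to 0.00434 with 1 library left out. edgeR called 95 of 96 tested family rows lower in mature testis at 10 CPM in 3 libraries (19.1% of all tested sequences) and 254 of 290 with at least 6 reads (19.5%), and DESeq2 called 148 of 157 (21.8%). Leaving out 1 library gave 163 to 170 lower calls among 170 to 182 tested family rows, with 17.3% to 30.8% of all sequences lower. The causes were not tested. Replicate numbers did not pair the libraries (correlations of -0.0808 to 0.0267 for the same number), and with a replicate block 149 of 157 family rows were called lower (21.4% of all sequences), and the mean length, 1 mismatch and base 1 gave exact p-values of 0.5, 0.25 and 1. TMM scaling turned the log2 ratios of uniq_4072286 (-0.31), uniq_3181825 (-1.85), uniq_4522743 (-1.59) and uniq_3332081 (-1.92). With 1 library left out the log2 ratios ranged from -0.53 to 2.44 for uniq_3181825, -1.30 to 2.46 for uniq_2976976, -0.18 to 1.92 for uniq_4522743 and -0.56 to 1.31 for uniq_4115536. These scalings and left-out libraries for single rows, and the shares with 1 mismatch without T4G rows or rows of 30 nt, were also chosen after seeing the data.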
